A study of Mus musculus with 35 samples.

Results

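Single cells of mouse small intestinal organoids were compared between the 2 harvests of one culture, labelled as whole organoid replicates 1 and 2. Organoids are crypt-like epithelial bodies grown in culture from intestinal crypts. The cells came from crypts of a single wild-type C57BL/6 mouse, kept as 1 organoid line, and the harvests were different passages of that line. Cells were taken without selection for a reporter, and no treatment, genotype or age difference between the passages was given in the labels. The replicate number is used here as the passage number, and the labels do not say which harvest came first or how many days lay between them. Cells were sorted singly into 96 wells per plate and read by CEL-seq, which tags the 3′ end of each messenger RNA with a well barcode and a molecular identifier. Passage 1 filled 3 plates (I to III) and passage 2 filled 4 plates (I to IV). A well was kept when it held at least 1500 gene counts, which left 276 of 288 wells of passage 1 and 209 of 384 wells of passage 2. The 485 kept wells stood among 672 whole organoid wells and 1872 wells in all deposited tables. In deposited counts, before rounding to whole numbers, the lowest kept well held 1510 in passage 1 and 1511 in passage 2, and the highest wells left out held 1412 and 1479. For every share of wells, each kept well was also thinned at random to 1500 counts, so that deep and shallow wells were read at 1 depth.

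The small intestinal epithelium renews itself from Lgr5-positive crypt stem cells. Their dividing daughters become either absorptive enterocytes or secretory cells: Paneth cells with antimicrobial defensins, mucus-forming goblet cells, hormone-releasing enteroendocrine cells and chemosensory tuft cells. Enterocytes carry digestive enzymes and nutrient transporters on their brush border and build lipoproteins from absorbed fat. Organoid cultures hold the same cell types in proportions that can vary from harvest to harvest.

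Each passage was sampled once. The plates therefore give the spread within a harvest, all p-values below measure only that spread, and passage, harvest and library preparation cannot be told apart. With 3 plates against 4, an exact two-sided permutation test cannot go below p = 0.0571. Cells of 1 plate are not replicates, and all 7 plates used the same 96 well barcodes.

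Plates I and II of passage 2 stood apart from the other 5. Their kept wells numbered 26 and 63, with median counts of 2286 and 3815, against 79 and 41 wells and medians of 9232 and 11721 on plates III and IV. The 3 plates of passage 1 had 88 to 95 kept wells and medians of 6168 to 9550. Added spike-in RNA took 18.0% and 17.8% of all counts on those plates and 7.57% to 12.2% on the others. Over 3661 genes with a mean of at least 50 CPM (counts scaled by the TMM-adjusted total of each plate), Spearman correlations of log2(CPM + 10) were 0.915 to 0.938 among passage 1 plates. They were 0.796 to 0.825 between passage 1 and plates III or IV of passage 2, but 0.383 to 0.545 between passage 1 and plates I or II. These correlations run across genes, which are not independent. The difference varied with the base composition of the transcript end. Among the 943 genes with the lowest GC content in the last 500 transcript bases (18.2% to 39.8%), the median log2 difference from passage 1 was −1.53 on plates I and II and 0.09 on plates III and IV. Among the 883 genes with the highest GC content (51.6% to 72.8%), the medians were 0.52 and −0.19. Whether base composition, depth or the cells set these plates apart was not tested. Each result below is therefore given plate by plate, or with and without plates I and II.

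**Figure D1:**
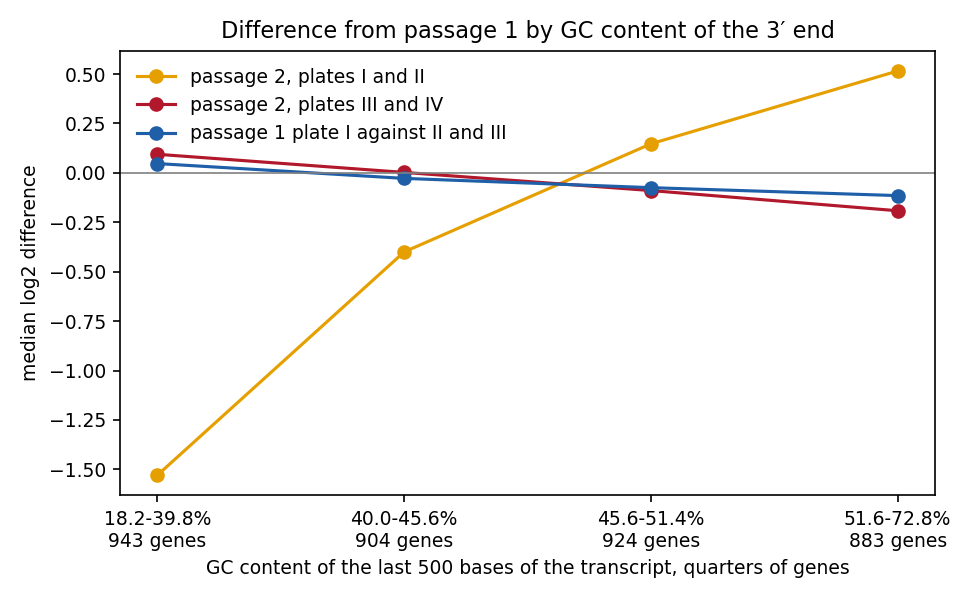
Median log2 difference of plate groups from passage 1 (vertical axis), for 4 groups of genes by GC content of the last 500 transcript bases (horizontal axis). Plates I and II of passage 2 run from −1.53 to 0.52, plates III and IV from 0.09 to −0.19, and passage 1 plate I against its other plates from 0.05 to −0.11.

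The cells read as epithelium on every plate. The 11 epithelial markers, such as Epcam and Krt8, summed to 13.0 to 21.0 counts of 1500 per well. The 12 immune markers reached at most 0.0341 and the 11 stromal markers at most 0.111 counts of 1500 per well.

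Of the 8 marker-high classes counted, absorptive wells differed by the most percentage points. A well was called absorptive-high when 6 enterocyte genes, such as the fatty acid binding protein genes Fabp1 and Fabp2 and the retinol binding protein gene Rbp2, together gave at least 15 of 1500 counts. In passage 1, 71 of 95, 64 of 93 and 62 of 88 wells were absorptive-high, or 74.7%, 68.8% and 70.5%. In passage 2, 10 of 26, 22 of 63, 29 of 79 and 17 of 41 wells were, or 38.5%, 34.9%, 36.7% and 41.5%. The plates of the passages did not overlap, and plates I and II of passage 2 lay with plates III and IV. The means were 71.3% ± 3.06 (SD, n = 3 plates) and 37.9% ± 2.79 (SD, n = 4), a difference of −33.4 percentage points. The exact permutation test over plates gave p = 0.0571, the smallest possible, and 0.152 after Benjamini-Hochberg adjustment over 8 classes. With plates I and II of passage 2 left out, the difference was −32.3 points. Absorptive-high wells had a median of 7044 counts in passage 1 and 3776 in passage 2. Wells high for none of the absorptive, enteroendocrine, Paneth and goblet lists had medians of 10866.5 and 5090. The 1500-count minimum left out 12 wells of passage 1 and 175 of passage 2, which were not classed. How far it moved this or any other share was not tested.

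The class is a range of a continuous sum, not a discrete type. Only 16 wells of passage 1 and 29 of passage 2 had between 10 and 20 absorptive counts, near the threshold. The median well held 51, 52 and 57 absorptive counts of 1500 in passage 1 and 4, 8, 9 and 10 in passage 2. At a minimum of 5 counts the mean shares were 85.8% and 60.3%, and at 30 counts they were 65.9% and 29.6%.

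**Figure D2:**
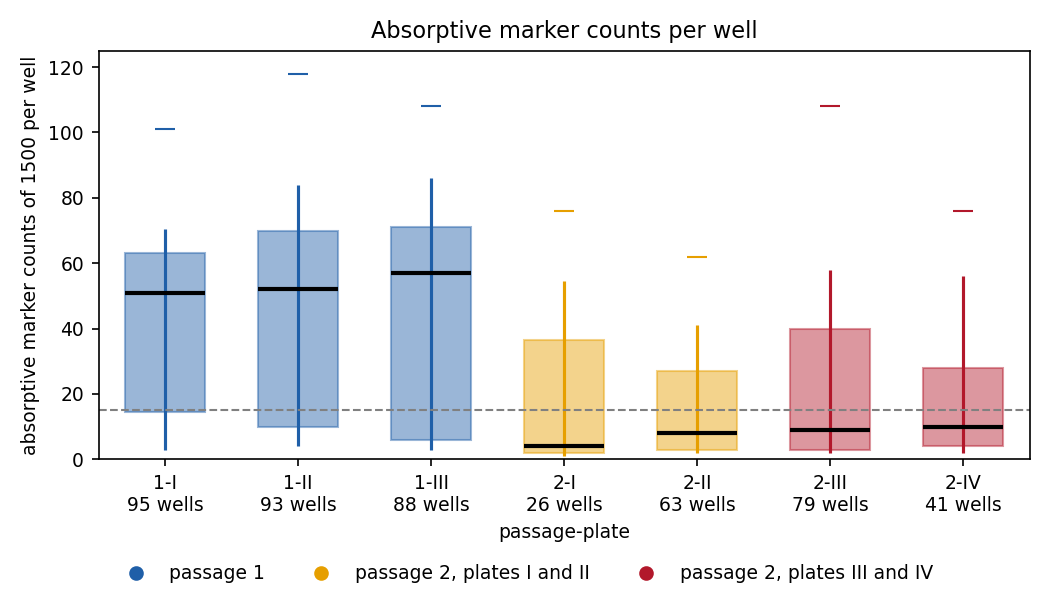
Summed counts of the 6 absorptive markers per well after thinning to 1500 counts (vertical axis) on each plate (horizontal axis). Boxes span the middle 50% of wells with the median as a black line, vertical lines span the middle 80% of wells, dashes mark the highest well, and the broken line is the minimum of 15. Passage 1 medians lie at 51 to 57 and passage 2 medians at 4 to 10.

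Enteroendocrine-high wells were found in passage 1 and in none of the 209 kept wells of passage 2. Wells with at least 15 of 1500 counts over 16 granule genes and 10 hormones numbered 7, 4 and 4 on the passage 1 plates and 0 on each passage 2 plate. That is 15 of 276 wells, or 5.43% (exact 95% binomial interval 3.07% to 8.81%). In passage 2, 0 of 209 wells has an exact 95% upper bound of 1.75%, and the limit set by 3 counts is 1.44%, counting error only. The plates did not overlap (exact permutation p = 0.0571, adjusted over the 8 classes 0.152). The 15 wells had sums of 18 to 147 counts and a median of 60, while the highest sum in passage 2 was 6. Only 3 wells of passage 1 and 0 of passage 2 lay between 10 and 20.

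Paneth-high wells (20 defensin and other Paneth genes, at least 15 counts) numbered 1, 1 and 0 in passage 1 and 2, 2, 2 and 0 in passage 2. Goblet-high wells numbered 2, 0 and 1 against 2, 3, 5 and 0. Tuft-high wells (at least 5 counts) numbered 2, 1 and 0 against 0, 1, 0 and 1. The plates overlapped for all of these classes, with exact permutation p-values of 0.229 for Paneth, 0.229 for goblet and 1.0 for tuft. Counts this small give wide intervals: the Paneth share was 0.725% in passage 1 (exact 95% interval 0.0879% to 2.59%) and 2.87% in passage 2 (1.06% to 6.14%). Every Paneth-high well of passage 2 was also goblet-high, 6 of 6, as was 1 of 2 in passage 1. The 6 wells were not alike. On plate II, 1 of them held 205 goblet counts and only 16 Paneth counts of 1500, 11 of them from Itln1. It passed the Paneth minimum narrowly. The others held 49 to 621 Paneth counts and 36 to 202 goblet counts. No doublet caller was run on these singly sorted wells, so whether they held 2 cells was not tested.

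**Figure D3:**
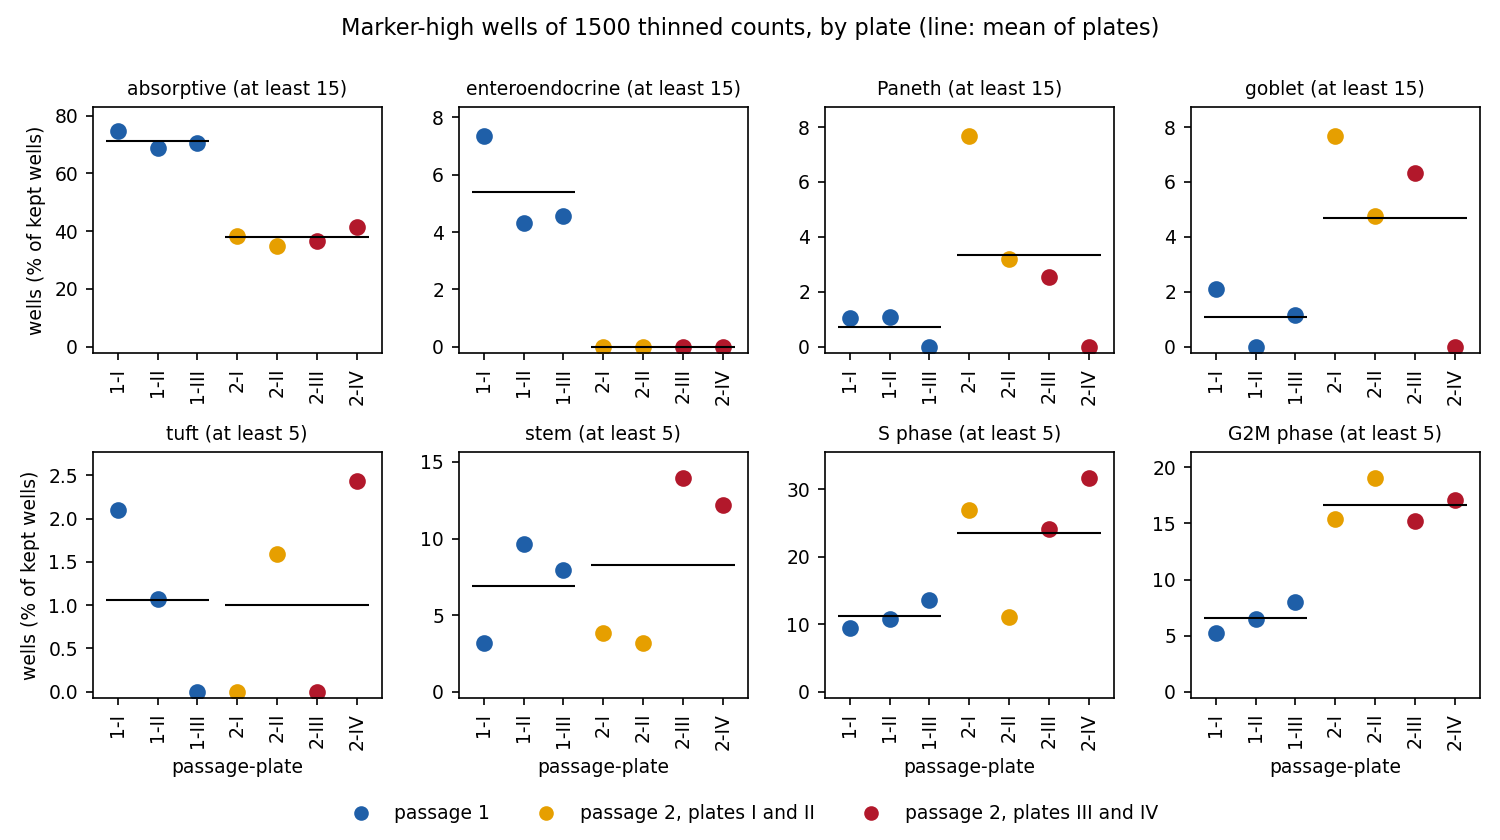
Share of kept wells (vertical axes, %) that reached the minimum count of each marker list, on the 3 plates of passage 1 and the 4 plates of passage 2 (horizontal axes). The lines are means of plates. Absorptive, enteroendocrine and G2M phase shares do not overlap between passages, and Paneth, goblet, tuft, stem and S phase shares do.

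Wells high for cell cycle genes took larger shares of passage 2 plates, at the smallest p the design allows for mitotic genes. S-phase wells (at least 5 counts over 23 replication genes) were 9.47%, 10.8% and 13.6% of passage 1 plates and 26.9%, 11.1%, 24.1% and 31.7% of passage 2 plates. Plate II of passage 2 lay within the range of passage 1 (exact permutation p = 0.114). G2M-phase wells (25 mitotic genes) were 5.26%, 6.45% and 7.95% against 15.4%, 19.05%, 15.2% and 17.1%, with no overlap (exact permutation p = 0.0571, adjusted over the 8 classes 0.152). The G2M means were 6.56% ± 1.35 (SD, n = 3) and 16.7% ± 1.79 (SD, n = 4). Wells high for either phase were 12.6%, 16.1% and 14.8% of passage 1 and 34.6%, 25.4%, 31.6% and 39.0% of passage 2. In each passage such wells were rare among absorptive-high wells, at 6 of 197 and 3 of 78.

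Outside the differentiated classes, the share of wells high for a phase overlapped between the passages. Wells that were high for none of the absorptive, enteroendocrine, Paneth and goblet lists, called remaining wells here, numbered 62 of 276 (22.5%) in passage 1 and 121 of 209 (57.9%) in passage 2. Among them, 9 of 16, 13 of 25 and 12 of 21 wells were high for a phase in passage 1, or 56.3%, 52.0% and 57.1%. In passage 2 the numbers were 9 of 14, 16 of 38, 22 of 45 and 16 of 24, or 64.3%, 42.1%, 48.9% and 66.7%. The means were 55.1% and 55.5% (exact permutation p = 1.0), with passage 2 plates on both sides of passage 1. A share this variable does not show that the passages were equal.

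Stem-high wells (21 crypt stem genes, at least 5 counts) were 3.16%, 9.68% and 7.95% of passage 1 plates. They were 3.85% and 3.17% of plates I and II and 13.9% and 12.2% of plates III and IV of passage 2. The passages overlapped (exact permutation p = 0.686), and the sign of the difference turned with the choice of plates: 6.13 points without plates I and II, −3.42 points without plates III and IV. A minimum of 5 counts is near the depth limit for this list, since 39 and 33 wells of the passages held 3 to 6 counts.

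Gene levels were then compared over the sum of all kept wells of each plate. Of 7749 genes tested by edgeR's quasi-likelihood test, 6 had a Benjamini-Hochberg adjusted p under 0.05, or 0.0774%. All 6 were lower in passage 2. No gene was called higher, while 592 genes had an unadjusted p under 0.05, and DESeq2 called 20 higher and 33 lower. For 352 genes (4.54%) every passage 2 plate lay above every passage 1 plate, and for 611 (7.88%) every one lay below. Without plates I and II of passage 2, edgeR called 103 genes higher and 351 lower of 8457 (5.37%). With plates I and II as the whole of passage 2, it called 935 higher and 2017 lower of 7815 (37.8%). Both of those smaller comparisons called all 6 genes of the full one. They share the passage 1 plates, so their calls are not independent.

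Of the 6 genes, 4 belong to enteroendocrine cells. Chgb encodes secretogranin 1, a granule protein, and lies on chromosome 2 at 132781278 to 132795079 (GRCm38). It stood at 2407, 1206 and 1219 CPM in passage 1 and at 14.4, 0, 1.22 and 2.45 CPM in passage 2. The log2 fold change was −9.49 ± 0.62 (SE, edgeR adjusted p = 0.000142), and the lowest passage 1 plate was far above the highest passage 2 plate. Chga, the related chromogranin A (chromosome 12, 102554969 to 102565028), stood at 454, 389 and 351 CPM in passage 1 and had no count in passage 2. With 3 counts over passage 2 as the limit, it was at least 205-fold lower there (edgeR adjusted p = 0.00137).

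Tac1, the precursor of substance P, stood at 183, 190 and 103 CPM in passage 1, and in passage 2 it had 1 count in all (edgeR adjusted p = 0.00124). Tph1, the rate-limiting enzyme of serotonin synthesis in enterochromaffin cells, stood at 111, 80.8 and 112 CPM in passage 1. It had no count in passage 2, which makes it at least 52.1-fold lower (edgeR adjusted p = 0.0176). In these plate sums, fewer cells of a type and less RNA per cell cannot be told apart, and the well shares above are the measure of the first. When 1 plate at a time was left out, Chgb was called in all 7 fits. Chga was lost without plate I of passage 1 (edgeR adjusted p = 0.059) and Tac1 without plate III of passage 2 (edgeR adjusted p = 0.0511). Tph1 was lost in 5 of the 7 fits, without any plate of passage 1 and without plate III or IV of passage 2 (edgeR adjusted p = 0.0524 to 0.383).

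The granule list as a whole was split. Of 8 granule genes tested, 6 had negative log2 fold changes, and 3 of these (Chgb, Chga and Tph1) were the called genes. The other 2, Gch1 and Rab3c, had log2 fold changes of 0.18 and 0.55 and overlapping plates, and are named here after their values were seen. With the called genes included, 5 of the 8 had non-overlapping plates with passage 2 below, against 7.88% of all genes. The median log2 fold change of the 8 was −3.50, against −0.05 over all genes. Cpe, a prohormone-processing carboxypeptidase, stood at 67.0, 35.9 and 23.0 CPM in passage 1 and at 0, 4.09, 0 and 0 in passage 2 (edgeR adjusted p = 0.0828). Fev, a transcription factor of serotonin-producing cells, stood at 99.7, 34.6 and 29.5 CPM and had no count in passage 2, at least 28.1-fold lower (edgeR adjusted p = 0.137). On plates III and IV against passage 1, edgeR called 6 of 9 granule genes and 4 of 8 endocrine transcription factors lower, against 4.15% of all genes.

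The 15 enteroendocrine-high wells shared genes of serotonin-producing enterochromaffin cells, a description only, since granule genes and hormones chose them. All 15 held Chga, Chgb and Tph1, and 13 held Tac1. Sct, the secretin gene, had counts in 7 of the 15, at most 2 of 1500 per well. Cck, the cholecystokinin gene, had counts in 1 of the 15, and Gip, Sst, Nts and Pyy were detected in none of them. These wells carried 78.8% of all Chga counts and 89.7% of all Tph1 counts of passage 1. Low counts also spread beyond them: Chgb was found in 75.9% of the other 261 passage 1 wells, at a median of 3 counts and at most 12 of 1500. In passage 2 it was found in 1.44% of wells. The median depths were 6273 counts in enteroendocrine-high wells, 8068 in other passage 1 wells and 4608 in passage 2. Absorptive-high wells of passage 1, which should lack the gene, held it in 78.7% of cases, so the share of wells with a Chgb count is not a share of enteroendocrine cells.

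Neurog3, the transcription factor that starts the endocrine fate, was detected in both passages. It stood at 121, 94.9 and 141 CPM in passage 1 and at 0, 20.4, 46.5 and 0 CPM in passage 2 (edgeR adjusted p = 0.45 for a log2 fold change of −2.40 ± 0.74 SE). The plates did not overlap. At least 5 of 1500 Neurog3 counts were seen in 9 wells of passage 1, of which 4 were also enteroendocrine-high. In passage 2 the level was reached by 1 well, whose endocrine sum was 1 count. Insm1, a factor downstream of Neurog3, was found in 44 wells of passage 1 and 19 of passage 2.

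Reg4 encodes a secreted lectin that marks enteroendocrine and deep crypt secretory cells. It stood at 1346, 1747 and 1128 CPM in passage 1, and in passage 2 at 0, 0, 198 and 0 CPM. The log2 fold change was −4.46 ± 1.14 (SE, edgeR adjusted p = 0.308), and −3.68 without plates I and II (adjusted p = 0.00983). All its passage 2 counts lay on plate III, and without that plate it was called lower (edgeR adjusted p = 0.00137). A few wells held most of it: the 10 highest wells carried 83.6% of its counts in passage 1 and 94.4% in passage 2. It was found in 76.1% of passage 1 wells and 9.09% of passage 2 wells, and in 80.7% of absorptive-high wells of passage 1.

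**Figure D4:**
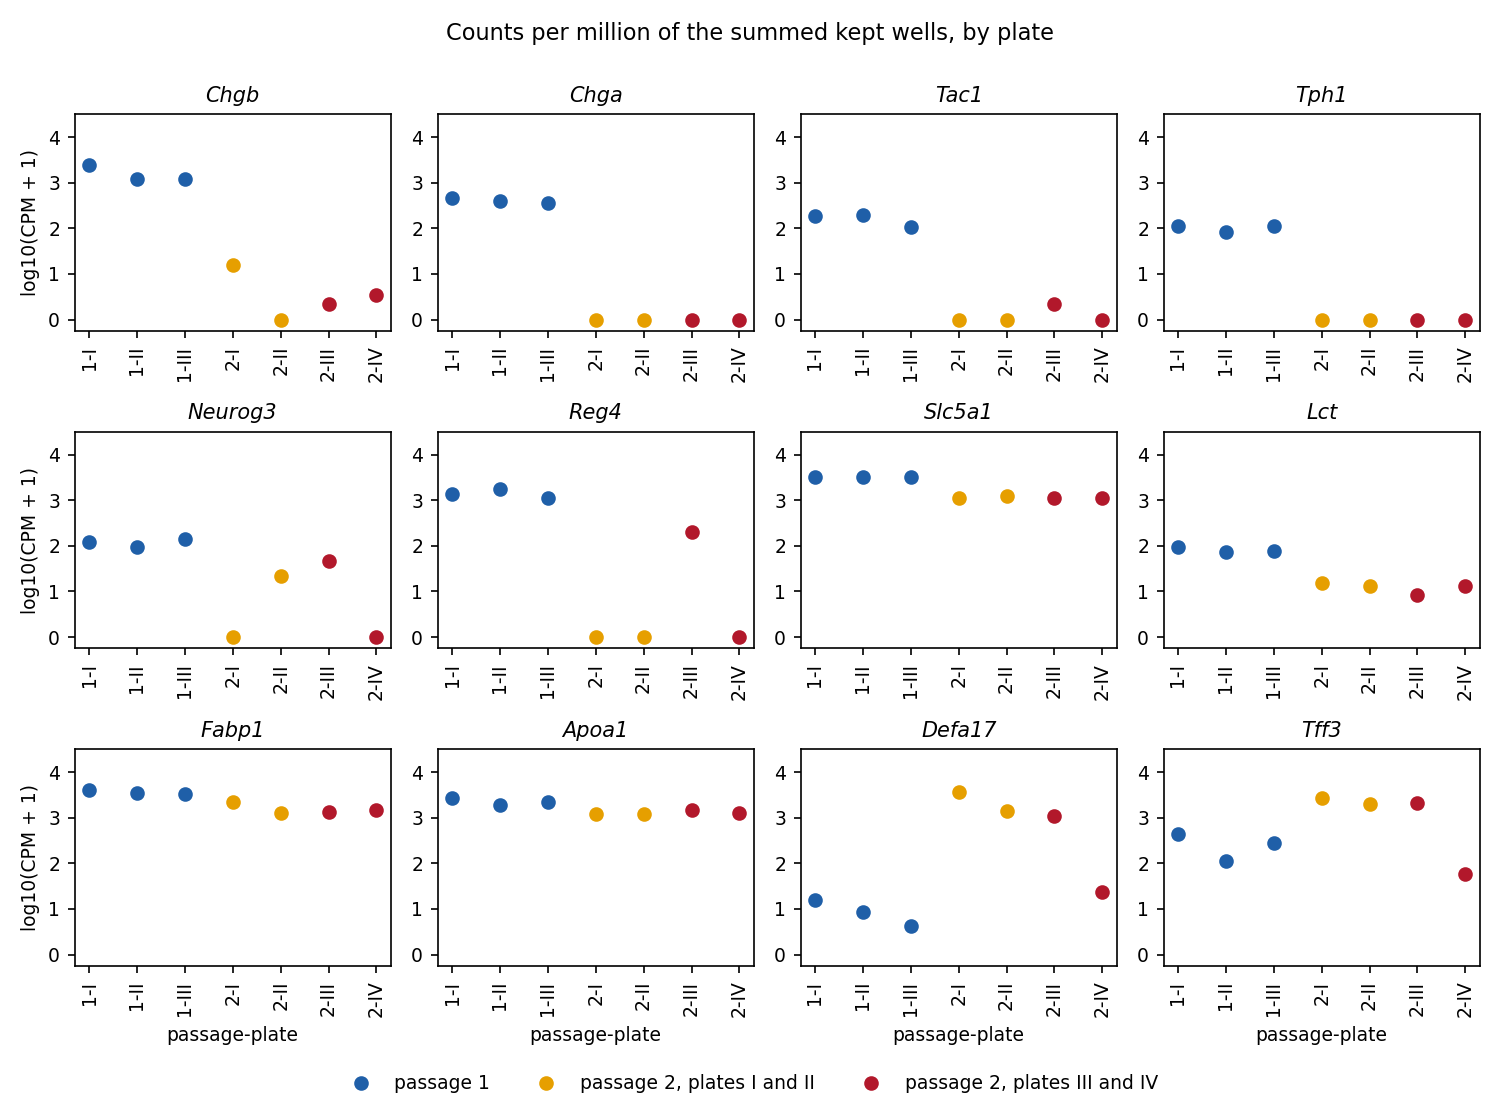
Level of 12 genes as log10(CPM + 1) (vertical axes) in the summed kept wells of each plate (horizontal axes). Chga and Tph1 have no count in passage 2, Slc5a1 and Lct lie lower on all 4 passage 2 plates, and Tff3 overlaps because plate IV of passage 2 is low.

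The other called genes, Slc5a1 and Lct, act in carbohydrate absorption. Slc5a1 encodes the sodium-glucose cotransporter SGLT1 of the brush border (chromosome 5, 33104219 to 33162870). It stood at 3142, 3153 and 3220 CPM in passage 1 and at 1108, 1235, 1108 and 1091 CPM in passage 2. These levels were even within each passage, including plates I and II. The log2 fold change was −1.48 ± 0.18 (SE, edgeR adjusted p = 0.0172). Lct, the lactase gene, stood at 95.0, 71.8 and 77.1 CPM against 14.4, 12.3, 7.34 and 12.3 CPM, a log2 fold change of −2.96 ± 0.42 (SE, edgeR adjusted p = 0.0373). Both calls were lost in 5 of the 7 fits that left out 1 plate, namely any plate of passage 1 or plate III or IV of passage 2. The edgeR adjusted p was then 0.0511 to 0.19 for Slc5a1 and 0.0899 to 0.46 for Lct.

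Other enterocyte genes lay lower in passage 2 without passing the test. Fabp1, the liver-type fatty acid binding protein, stood at 3947, 3439 and 3383 CPM against 2230, 1288, 1327 and 1474 CPM (edgeR adjusted p = 0.137 for a log2 fold change of −1.19 ± 0.24 SE). Apoa1, an apolipoprotein of chylomicrons and high-density lipoprotein, stood at 2662, 1931 and 2163 CPM against 1180, 1222, 1444 and 1260 CPM (edgeR adjusted p = 0.308). The glutathione transferase gene Gsta1 stood at 3415, 3131 and 3051 CPM against 662, 1603, 1134 and 1410 CPM (edgeR adjusted p = 0.137). For all of these the plates did not overlap.

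Counted by list, 4 of 6 absorptive markers, 9 of 13 brush border enzymes and 12 of 24 detoxification genes had every passage 2 plate below every passage 1 plate. The same held for 8 of 16 lipid absorption genes, 3 of 5 tested Reg lectins and 2 of 11 nutrient transporters, 1 of them Slc5a1. The share over all tested genes was 7.88%. The median log2 fold changes were −1.12 for absorptive markers, −1.35 for brush border enzymes, −1.03 for detoxification genes, −0.52 for lipid absorption genes, −0.48 for nutrient transporters and −1.35 for Reg lectins. Once plates I and II were left out, edgeR called 5 of 6 absorptive markers, 9 of 14 brush border enzymes, 10 of 24 detoxification genes, 8 of 17 lipid absorption genes and 3 of 12 nutrient transporters lower. In that comparison 4.15% of all genes were called lower.

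Sis, sucrase-isomaltase, shows how plates I and II bear on such values. It stood at 2453, 2133 and 2446 CPM in passage 1, at 14.4 and 40.9 CPM on plates I and II of passage 2 and at 1191 and 1260 CPM on plates III and IV. Its last 500 bases have 31.6% GC. Mgam, maltase-glucoamylase, with 39.8% GC, stood at 1654, 1446 and 1476 CPM, then at 28.8 and 61.3, then at 577 and 694 CPM. Plates III and IV alone gave log2 fold changes of −0.95 for Sis (edgeR adjusted p = 0.00424) and −1.28 for Mgam (edgeR adjusted p = 0.00104). Slc5a1, with 42.0% GC, did not differ in this way between the plates of passage 2.

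Levels were also compared within absorptive-high wells alone, where the number of such wells does not enter. These wells numbered 62 to 71 per plate in passage 1 and 10, 22, 29 and 17 in passage 2. Among 4171 genes tested, edgeR called 2 lower in passage 2 (0.048%) and none higher, with 256 at an unadjusted p under 0.05, and DESeq2 called 12 higher and 12 lower. The called genes were Chgb (log2 fold change −8.41, edgeR adjusted p = 0.000205) and Reg4 (−7.09, edgeR adjusted p = 0.0303). Leaving out plate I, III or IV of passage 2 ended the call of Reg4 (edgeR adjusted p = 0.0944 to 0.199), and Chgb was called in all 7 such fits. Neither is an enterocyte marker. In absorptive-high wells of passage 1, Chgb stood at 932, 1224 and 475 CPM, and 2 of those 197 wells were also enteroendocrine-high.

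Lipid absorption genes overlapped between the passages in absorptive-high wells. They summed to 28.7, 27.1 and 30.02 counts of 1500 per well in passage 1 and to 36.0, 24.8, 26.9 and 23.6 in passage 2. The median log2 fold change of the 16 genes tested was 0.15, against −0.05 over all genes, and no member was called. Detoxification genes summed to 43.0, 43.3 and 53.4 counts against 57.1, 43.9, 37.1 and 39.5, also overlapping.

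The 6 marker genes chose these wells, so their level is a description only: 55.6, 62.8 and 65.2 counts of 1500 per well against 45.9, 35.0, 50.4 and 42.0. Nutrient transporters summed to 10.2, 11.4 and 11.7 counts per well in passage 1 and 10.1, 9.50, 9.21 and 7.12 in passage 2. Slc5a1 stood at 4322, 4755 and 5297 CPM within these wells against 2784, 3104, 3648 and 2796 CPM (edgeR adjusted p = 0.582 for a log2 fold change of −0.63 ± 0.21 SE). Lct stood at 138, 112 and 136 CPM against 38.7, 41.2, 28.4 and 35.5 CPM (−1.92 ± 0.39 SE, edgeR adjusted p = 0.123). For these genes the plates did not overlap, but neither was called. On plates III and IV alone, Lct was called (−2.05, edgeR adjusted p = 0.00731) and Slc5a1 was not (−0.59, edgeR adjusted p = 0.162).

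Of 14 brush border enzymes tested in absorptive-high wells, 4 had every passage 2 plate below passage 1, against 7.19% of all genes. With plates I and II left out, 2 of 13 were called lower, against 1.65% of all genes. They were Lct and Ggt1, a gamma-glutamyl transferase named after its values were seen (log2 fold change −2.24, edgeR adjusted p = 0.000737). The same comparison called 10 of 24 cholesterol synthesis genes higher and 1 lower, against 0.996% of all genes higher. That direction was seen on plates III and IV only. The list summed to 6.70, 6.66 and 6.24 counts of 1500 per well in passage 1, 6.60 and 6.55 on plates I and II and 9.48 and 9.53 on plates III and IV.

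**Figure D5:**
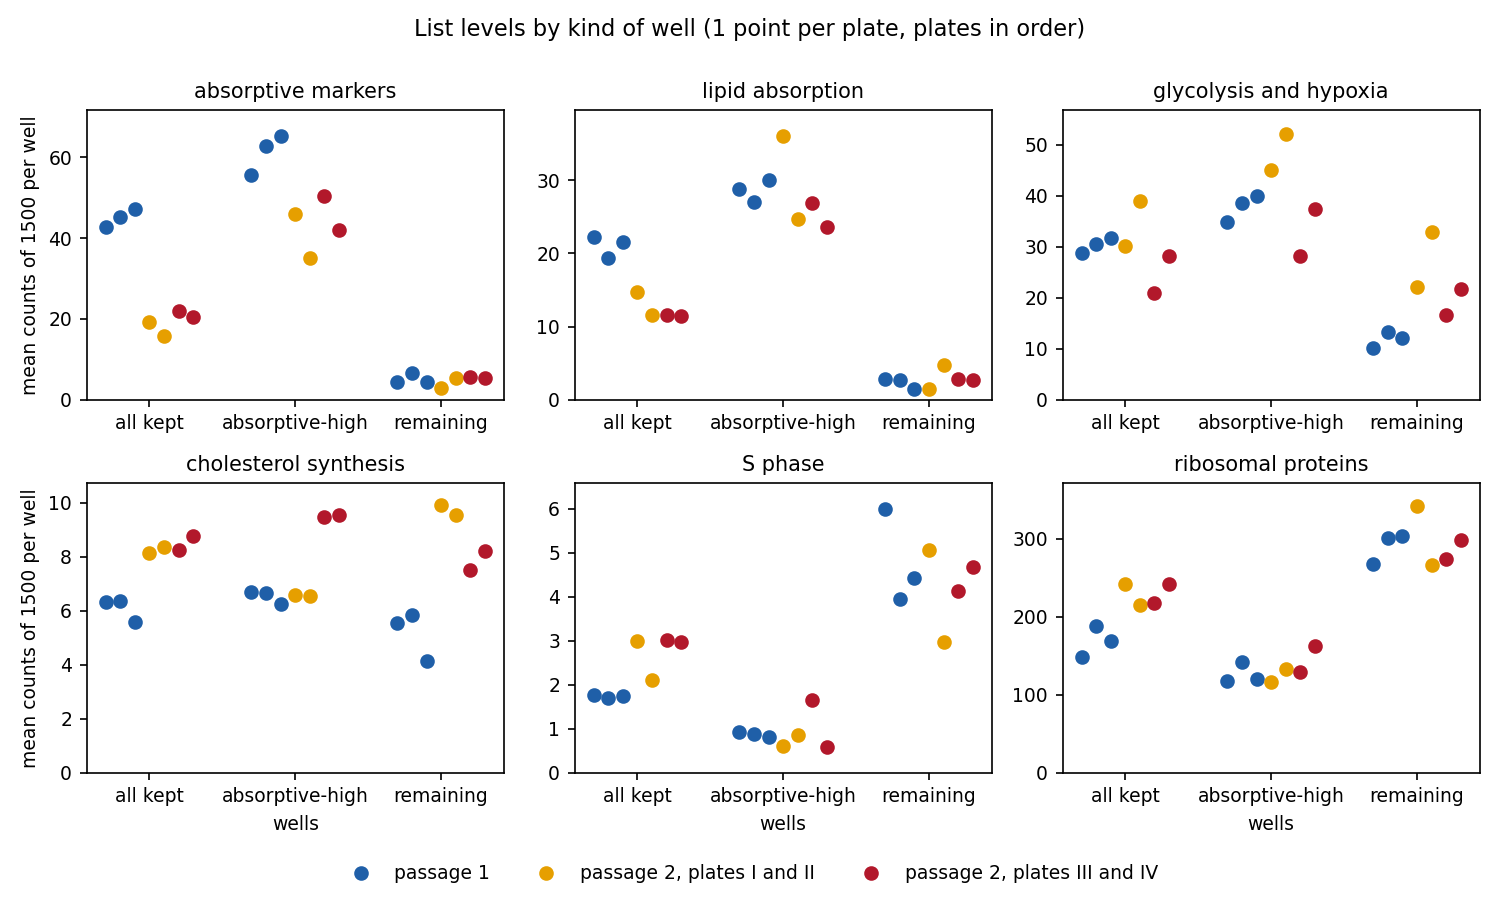
Mean counts of 1500 per well (vertical axes) of 6 gene lists in all kept, absorptive-high and remaining wells (horizontal axes), with 1 point per plate. Absorptive markers, S phase genes and ribosomal proteins do not overlap between the passages over all wells but overlap among remaining wells. A low sum of the absorptive markers helped choose the remaining wells, so the overlap of these markers there is a description only. Glycolysis and cholesterol synthesis genes lie higher in remaining wells of passage 2.

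Among remaining wells, edgeR called none of 4816 genes, with 215 at an unadjusted p under 0.05, and DESeq2 called 11 higher and 3 lower. Without plates I and II, edgeR called 40 higher and 44 lower of 5192 (1.62%). These wells numbered 16, 25 and 21 in passage 1 and 14, 38, 45 and 24 in passage 2.

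Glycolysis and hypoxia genes lay higher in remaining wells of every passage 2 plate, though no member was called over the 7 plates. They summed to 10.1, 13.2 and 12.05 counts of 1500 per well in passage 1 and 22.1, 33.0, 16.6 and 21.6 in passage 2, without overlap. All 18 genes tested had a positive log2 fold change, with a median of 0.96 against −0.00178 over all genes. For 8 of the 18 every passage 2 plate lay above passage 1, against 4.01% of all genes. Ldha, lactate dehydrogenase A, stood at 1223, 1896 and 1541 CPM against 2434, 3449, 1956 and 3020 CPM (edgeR adjusted p = 0.752 for a log2 fold change of 0.81 ± 0.25 SE). Tpi1, triosephosphate isomerase, stood at 800, 950 and 808 CPM against 2087, 2095, 1153 and 1239 CPM (0.93 ± 0.27 SE, edgeR adjusted p = 0.709).

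Plates III and IV alone gave 3 of the 18 called higher, against 0.77% of all genes, here named after their values were seen: Bnip3, Egln3 and Pgk1. Bnip3 and Egln3 are classical targets of the hypoxia-inducible factor, and Pgk1 encodes phosphoglycerate kinase. Bnip3 stood at 8.65, 19.95 and 4.75 CPM in passage 1 and at 31.6, 61.8, 108 and 97 CPM in passage 2 (log2 fold change 3.05 on plates III and IV, edgeR adjusted p = 0.00251). The Bnip3 levels of passage 1 and of plate I of passage 2 are near the floor and rest on few counts. Remaining wells held only 259324, 276108 and 234686 counts in all on the passage 1 plates and 31744 on that plate. Pgk1 stood at 683, 702 and 685 CPM against 1581, 1525, 1208 and 1768 CPM (1.04, edgeR adjusted p = 0.00561). Over all kept wells the list overlapped between the passages, at 28.7, 30.5 and 31.6 counts per well against 30.2, 39.0, 20.9 and 28.2.

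Some enterocyte genes also lay higher in remaining wells of passage 2. A low sum of the 6 absorptive markers helped choose these wells, so the level of these markers is a description only. The markers summed to 4.44, 6.60 and 4.48 counts of 1500 per well in passage 1. In passage 2 they summed to 2.79, 5.39, 5.67 and 5.33, which overlap. Of 14 lipid absorption genes tested, 12 had a positive log2 fold change, with a median of 0.63. S100g, an intestinal calcium binding protein named after its values were seen, stood at 25.9, 95.8 and 57.1 CPM against 126.5, 378, 257 and 168 CPM (edgeR adjusted p = 0.387, and 0.0181 on plates III and IV alone). Alpi, intestinal alkaline phosphatase, likewise named, had a log2 fold change of 1.54 with overlapping plates (edgeR adjusted p = 0.77, and 0.0379 on plates III and IV alone). In absorptive-high wells, glycolysis genes summed to between 28.3 and 52.0 counts of 1500 per well on the 7 plates. The part of enterocyte genes in the glycolysis values was not tested.

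Cholesterol synthesis genes also lay higher in remaining wells of passage 2, at 5.56, 5.84 and 4.14 counts of 1500 per well against 9.93, 9.55, 7.51 and 8.21. Of 24 genes tested, 22 had a positive fold change, and none was called with or without plates I and II. For 5 of the 24 every passage 2 plate lay above passage 1, against 4.01% of all genes. Fdps, farnesyl diphosphate synthase, stood at 424, 555 and 414 CPM against 1233, 1120, 608 and 591 CPM (edgeR adjusted p = 0.929 for a log2 fold change of 0.90 ± 0.33 SE).

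Replication genes lay higher in passage 2 over all wells and overlapped among remaining wells. Over all wells 21 of 23 S-phase genes had a positive log2 fold change, with a median of 0.63. Non-overlapping plates with passage 2 above were seen for 5 of them, against 4.54% of all genes. On plates III and IV alone, 5 of the 23 were called higher, against 1.22% of all genes. Mcm7, a subunit of the replicative helicase, stood at 94.3, 108 and 105 CPM against 302, 204, 154 and 186 CPM (1.00 ± 0.32 SE, edgeR adjusted p = 0.481). Among remaining wells the median of the same 23 genes was −0.03 and none had non-overlapping plates. Ribosomal proteins summed to 149, 189 and 169 counts of 1500 per well against 242, 216, 218 and 242 over all wells, without overlap. Among remaining wells they gave 268, 301 and 304 against 343, 267, 274 and 299, which overlap. For 17 of the 75 ribosomal protein genes tested there, every passage 2 plate lay below passage 1, against 4.22% of all genes, and for 3 every one lay above.

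No stem cell gene was called over the 7 plates. Lgr5, the Wnt-responsive stem cell receptor, stood at 28.8, 18.0 and 41.0 CPM in passage 1 and 14.4, 36.8, 52.6 and 105 CPM in passage 2, with overlap (edgeR adjusted p = 0.71 for a log2 fold change of 1.01 ± 0.53 SE). Without plate IV of passage 2 the log2 fold change was 0.48. It was found in 17.0% of passage 1 wells and 20.1% of passage 2 wells, and in 8.12% and 8.97% of absorptive-high wells, which should lack it. Axin2, a target of Wnt signalling, stood at 26.5, 25.7 and 39.4 CPM against 43.2, 73.6, 58.7 and 90.7 CPM (1.19 ± 0.39 SE, edgeR adjusted p = 0.485). With plates I and II left out it was called higher (1.27, edgeR adjusted p = 0.0326). Of 14 stem genes tested, 2 had non-overlapping plates, both higher in passage 2, against 4.54% of all genes. Among remaining wells the list sum lay lower in passage 2, mostly on plates I and II. The 21 stem genes summed to 3.31, 2.80 and 2.90 counts of 1500 per well in passage 1 and to 1.43, 1.5, 2.76 and 2.50 in passage 2, without overlap. Of the 13 tested there, 8 had a negative log2 fold change, and none was called over the 7 plates. The median log2 fold change was −0.11, but −0.03 without plates I and II and −0.87 without plates III and IV. Only Axin2 had non-overlapping plates there, with passage 2 above.

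Paneth and goblet genes varied widely between the plates of passage 2, and none was called over the 7 plates. Defa17, a cryptdin, stood at 14.8, 7.70 and 3.28 CPM in passage 1 and at 3569, 1390, 1096 and 22.1 CPM in passage 2 (edgeR adjusted p = 0.137 for a log2 fold change of 7.30 ± 1.39 SE). Lyz1, Paneth cell lysozyme, stood at 38.2, 12.8 and 3.28 CPM against 7454, 397, 794 and 24.5 CPM, with overlap (edgeR adjusted p = 0.308). Tff3, the goblet cell trefoil factor, stood at 438, 109 and 281 CPM against 2691, 2024, 2075 and 56.4 CPM (edgeR adjusted p = 0.502). Plate IV of passage 2, which had no Paneth-high or goblet-high well, was near passage 1 for all of them. With plates III and IV as the whole of passage 2, edgeR called 4 of 7 Paneth genes higher, against 1.22% of all genes, and none of 9 goblet genes. With plates I and II in that place, 12 of 13 Paneth and 5 of 10 goblet genes were called higher, where 935 of all 7815 genes were. A few wells carried these sums: the 10 highest wells held 93.6% of the Defa24 counts and 87.3% of the Tff3 counts of passage 2.

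Paneth genes were also found at low counts in wells outside the Paneth-high class. Defa24 was found in 60.8% of passage 2 wells and 7.97% of passage 1 wells, and in 57.7% and 8.63% of absorptive-high wells, which should lack it. In absorptive-high wells it stood at 20.4, 4.14 and 2.89 CPM against 696, 343, 203 and 42.6 CPM, and among remaining wells at 8.65, 0 and 4.75 CPM against 474, 247, 195 and 123 CPM. Its median was 1 count per positive well in both passages, at median depths of 7044 and 3776 counts per absorptive-high well. Chgb too was found at low counts in many wells of the passage that held its high wells. Whether free RNA or exchange between well barcodes gave these counts was not tested.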

How the data were processed

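The values were deposited by the authors as estimated molecule counts per gene and well. The submitters' processing notes name BWA 0.6.2-r126 and mm10. The sources used here give neither annotation nor counter. All 1443580 values above 0 in the whole organoid tables came out whole (tolerance 1e-06) when a correction for repeated draws among 256 molecular identifiers was inverted, so no gene exceeds 1420 counts in a well. These estimated counts, as deposited by the authors, were rounded to whole numbers, and 92 spike-in rows were left out. Kept wells (at least 1500 counts) were summed per plate and tested with edgeR 4.0.16 (TMM, filterByExpr, quasi-likelihood test, Benjamini-Hochberg at 0.05). On simulated plate sums of 7837 genes this test recovered 35% of changes of 1 and 100% of changes of 2 on the log2 scale. These rates hold only for the spread of the simulated plates. The real plate sums of all kept wells had a biological coefficient of variation of 0.368 in edgeR, and plates I and II of passage 2 stood apart. Whether the rates hold at that spread was not tested, so they are not the power of the real comparison. Marker-high shares used wells thinned to 1500 counts and a two-sided exact permutation test over plates (scipy 1.17.1). CPM divide a gene's summed count by the plate's total over tested genes times its TMM factor. DESeq2 1.42.0, other filters, thresholds and plate sets were run as alternatives.

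Kept wells held 61948 to 1354877 counts per plate. GC content came from GENCODE transcripts of GRCm38. Cells were not clustered. 1 absorptive marker is not reported by name here. Named genes were Lgr5, Reg4, Chgb, Fabp1, called genes of the first test with at least 50 CPM and non-overlapping plates, and the highest members of each of 33 lists (up to 4, or up to 8 for 6 of them). The members, lists and tests were chosen with earlier results of these data known. Plate numbers did not pair the samples: deviations of same-numbered plates correlated at −0.18, 0.21 and −0.11. Intervals and limits cover counting error only. The labels name no separate cultures within a passage. The series text asks to discard wells 49 to 96 of a plate numbered 4 after naming a lineage tracing set. Leaving them out of plate IV of passage 2 was run as an alternative.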

Additional observations from a re-analysis of the deposited data

Results flagged for a closer look

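Among 34 values followed over the 4 plates of passage 2 (8 shares and up to 30 gene levels), 6 had 1 plate farther from the other plates than Dixon's 95% limit for 4 samples. By chance, about 1 in 20 groups of spread-out values would hold such a plate. That rate does not apply to Chgb, Tac1, Cpe and Reg4, where the other plates were at or near 0 and a few counts on 1 plate are enough. Chgb stood at 14.4 CPM on plate I, which is 1 count, against 0 to 2.45 CPM on the others. Tac1 stood at 1.22 CPM on plate III, also 1 count, and had none elsewhere. Cpe stood at 4.09 CPM on plate II and at 0 on the other plates. Reg4 stood at 198 CPM on plate III, from 162 counts in 19 wells, and at 0 on the other plates. Slc5a1 stood at 1235 CPM on plate II against 1091 to 1108 CPM on the others, a small gap beside passage 1 levels above 3140 CPM. Lyz1 stood at 7454 CPM on plate I against 24.5 to 794 CPM on the others. Plate I held 26 kept wells, of which 2 were Paneth-high with 621 and 345 of 1500 counts from Paneth genes.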

How the results depend on the processing

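The absorptive, enteroendocrine, Paneth, goblet and both phase differences kept their sign under all alternatives, and no followed gene changed sign (743 fits, 28 calls lost, 110 gained). Leaving out 1 plate gave differences of −34.7 to −31.7 points for absorptive wells, −5.96 to −4.42 for enteroendocrine, 1.19 to 3.76 for Paneth, 2.62 to 5.18 for goblet, 9.41 to 16.3 for S phase and 9.33 to 10.8 for G2M wells. The tuft and stem differences changed sign: −0.58 to 0.47 and −0.53 to 3.06 points without 1 plate. Without plates I and II of passage 2 they were 0.16 and 6.13 points, and stem was −3.42 without plates III and IV and −1.69 without wells 49 to 96 of plate IV.

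Numbers of called genes moved widely, and the cause was not tested. For all wells, absorptive-high wells and remaining wells they were 77, 71 and 62 without a filter and 53, 24 and 14 with DESeq2. They were 20, 4 and 3 without wells 49 to 96 of plate IV, 454, 154 and 84 without plates I and II, and 2952, 1450 and 1571 without plates III and IV. All wells gave 12 when thinned and 12 at a 3000-count minimum. Absorptive-high wells gave 1 with RLE factors, 1 when thinned and 5 at a minimum of 5 counts. Leaving out 1 plate gave 2 to 13, 1 to 16 and 0 to 4. With plate number as a replicate block, which does not pair these plates, the numbers were 14, 0 and 0. Plate sets without plates I and II, or III and IV, were chosen after seeing the data. With 26 kept wells on plate I of passage 2, a type at a few percent of cells could go unseen there.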

Other observations

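Genes of the acute stress response and of tissue repair showed values that no comparison above covers. Immediate early genes summed to 3.56, 4.20 and 3.39 counts of 1500 per well in passage 1 and to 4.46, 4.98, 9.10 and 3.44 in passage 2, and none of 16 tested was called. In absorptive-high wells the same genes summed to 2.11, 3.56 and 2.31 against 4.10, 4.36, 8.79 and 3.76 counts per well, without overlap. Areg, the growth factor amphiregulin, stood at 41.3, 83.4 and 42.7 CPM in passage 1 and at 0, 53.1, 401 and 51.5 CPM in passage 2, so plate III alone was high. Heat shock genes summed to 8.25 to 8.46 counts per well in passage 1, to 4.62 and 3.30 on plates I and II of passage 2, and to 9.56 and 7.41 on plates III and IV. In absorptive-high wells they summed to 7.51, 7.08 and 6.81 against 2.40, 2.14, 6.41 and 4.53, with every passage 2 plate below passage 1. Antigen presentation and interferon genes summed to 3.34, 3.78 and 4.27 counts per well in passage 1 and to 1.88, 2.24, 2.73 and 2.73 in passage 2. In absorptive-high wells this list overlapped between the passages, at 3.86, 4.84 and 5.16 against 3.40, 3.09, 4.14 and 3.94 counts per well. It also overlapped among remaining wells. B2m, the light chain of class I molecules, stood at 766, 957 and 931 CPM against 71.9, 110, 552 and 588 CPM (edgeR adjusted p = 0.629).

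The imprinted H19 RNA had no count in passage 1 and 14.4, 20.4, 15.9 and 2.45 CPM on the passage 2 plates, 20 counts in all. With 3 counts over passage 1 as the limit it was at least 11.5-fold higher in passage 2 (edgeR adjusted p = 0.19). Ribosomal RNA (Rn45s) differed between plates of 1 passage, at 14239, 2008 and 3123 CPM in passage 1 and 8778, 46531, 3127 and 1557 CPM in passage 2. On plate IV of passage 2, 8 of the 48 wells numbered 1 to 48 were kept and 33 of those numbered 49 to 96.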
